A study of Homo sapiens with 6 samples.

Results

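The inflammatory genes followed here encode secreted signals, namely the chemokines CCL20, CXCL8, CXCL1, CXCL2, CXCL3, CXCL5 and CCL2, and the cytokines IL6, LIF and CSF2, 10 in all. They were measured in A549, a non-small cell lung cancer line of human origin that resembles alveolar epithelium. They were chosen as inflammatory mediators whose mRNAs carry AU-rich elements, and every probe set that the platform annotation assigned to one of them alone was taken. The choice was made with earlier results of these data known. Counts of members set beside shares of all genes below are therefore descriptions and not tests of the group. This gave 14 probe sets, of 54675 on the array, for 9 of the 10 genes, among 19775 genes that had such a probe set. No probe set is listed with CSF2 alone in the annotation used, so CSF2 was not analysed here. Of the 14 probe sets, 12 had a mean level above the filter on dim signals, an intensity of 61.4, and both that did not were second probe sets of CXCL2.

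Chemokines attract leukocytes by binding G protein-coupled receptors, and IL-6 and LIF signal through receptors that share the gp130 chain. In airway epithelial cells these genes are switched on by NF-kappaB and related factors after stimuli such as interleukin-1. Their mRNAs are short-lived, because proteins that bind AU-rich sequence in the 3′ end recruit the CCR4-NOT complex, which removes the poly(A) tail. CNOT3 is one of the non-catalytic subunits of that complex.

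Each of 3 stable lines carried a lentiviral, tetracycline-inducible hairpin RNA: shCNOT3-1 and shCNOT3-2 with different sequences against CNOT3, and shNTC with a non-targeting one. Doxycycline (DOX, 1 ug/ml for 72 hours) turned the hairpin on, and every line was also grown without DOX. There was 1 array per line and condition, 6 in all, so the hairpins (n = 2) are the only replicates of knockdown and the shNTC line gives 1 pair. The labels name no separate cultures, and no repeat of a line and condition measures technical or culture spread. Of a gene's own values, the spread that enters a p-value comes from the difference between the hairpins. In the model with no DOX term it also comes from the DOX change of shNTC. Most of the weight in each variance fell on a prior that the limma test drew from all tested genes. The prior had 7.59 degrees of freedom in that model, against 2 of the gene's own, and 8.42 against 1 with a DOX term. Levels are MAS5 intensities on a linear scale, and all changes are differences of log2(intensity + 1) between the same line with and without DOX. In the main model the knockdown change is the mean DOX change of both shCNOT3 lines, with that of shNTC not subtracted. The change beyond shNTC subtracts it.

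CNOT3 read 81.9 and 46.9 with DOX in shCNOT3-1 and shCNOT3-2, against 227 and 228 without DOX, and 166 with and 178 without DOX in shNTC. A dimmer CNOT3 probe set was also lower with DOX in shNTC, at 95.6 with and 259 without it, beside 28.4 and 41.1 with DOX in the shCNOT3 lines, against 127 and 195 without. All 8 listed markers of the A549 epithelium passed the filter, at very different levels. KRT18 read between 42729 and 52581 and AKR1B10 between 40100 and 54270 over the 6 arrays. KRT19 read only 462 to 1361 and EPCAM 132 to 372. Of 12 leukocyte markers, 11 had a probe set and 4 passed the filter. These were CD14 (144 to 265), CD79A (197 to 293), ITGAM (94.5 to 147) and CSF1R (41.7 to 103). The pan-leukocyte gene PTPRC read 15.6 to 38.0 and did not pass. Summed over the list, leukocyte markers read 930 and 872 with DOX in shCNOT3-1 and shCNOT3-2, against 831 and 817 without DOX, and 782 with and 844 without DOX in shNTC. Fibroblast markers passed for 2 of 9 genes and endothelial markers for 1 of 7, with summed levels of 602 to 847 and 236 to 494 over all arrays. The ratio of 3′ to 5′ ACTB probe sets was 1.42 and 1.45 with DOX in the shCNOT3 lines, against 1.33 and 1.36 without, and 1.47 with and 1.58 without DOX in shNTC. The part of the marker levels and of RNA integrity in the results below was not tested.

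CCL20 lies on chromosome 2, IL6 on chromosome 7, and CXCL8, CXCL1, CXCL2, CXCL3 and CXCL5 in 1 cluster on chromosome 4. For these 7 of the 9 measured genes, the stretch from 140 bases before to 10 bases after the transcription start is shown. Sequences are from RefSeq (GRCh38.p14), 5′ to 3′ on the strand of the gene, and were searched for short promoter elements. Capitals mark the NF-kappaB consensus GGGRNNYYCC, the AP-1 motif TGANTCA, the C/EBP motif TTGCNNAA and the TATA motif TATAAA, searched on both strands. In these letters R is A or G, Y is C or T, and N is any base.
CCL20 (chr2:227813702-227813851, + strand): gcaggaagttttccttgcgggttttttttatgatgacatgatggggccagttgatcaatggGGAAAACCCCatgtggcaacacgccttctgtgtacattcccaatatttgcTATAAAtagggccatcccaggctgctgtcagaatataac
IL6 (chr7:22727060-22727209, + strand): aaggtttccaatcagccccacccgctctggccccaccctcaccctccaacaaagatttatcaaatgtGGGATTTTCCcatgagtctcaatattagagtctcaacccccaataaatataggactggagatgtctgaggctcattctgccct
CXCL8 (chr4:73740429-73740578, + strand): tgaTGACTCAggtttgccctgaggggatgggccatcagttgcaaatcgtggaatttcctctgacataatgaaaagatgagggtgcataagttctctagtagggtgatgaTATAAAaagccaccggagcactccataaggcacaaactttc
CXCL1 (chr4:73869253-73869402, + strand): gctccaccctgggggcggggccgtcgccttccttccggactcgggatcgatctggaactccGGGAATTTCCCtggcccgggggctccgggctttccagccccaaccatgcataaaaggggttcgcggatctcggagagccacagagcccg
CXCL2 (chr4:74099186-74099335, - strand): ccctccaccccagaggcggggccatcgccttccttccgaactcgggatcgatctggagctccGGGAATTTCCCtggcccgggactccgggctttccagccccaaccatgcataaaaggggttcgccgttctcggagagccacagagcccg
CXCL3 (chr4:74038680-74038829, - strand): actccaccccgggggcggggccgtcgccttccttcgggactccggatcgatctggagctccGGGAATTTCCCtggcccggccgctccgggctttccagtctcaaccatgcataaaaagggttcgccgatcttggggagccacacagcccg
CXCL5 (chr4:73998668-73998817, - strand): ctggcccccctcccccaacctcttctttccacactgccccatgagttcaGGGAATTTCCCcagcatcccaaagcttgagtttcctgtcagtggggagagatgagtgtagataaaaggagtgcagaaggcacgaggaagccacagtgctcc

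The NF-kappaB consensus was found in CCL20, IL6, CXCL1, CXCL2, CXCL3 and CXCL5, starting 73 to 91 bases before the transcription start on the strand of the gene in IL6 and the CXC genes, and from base -79 to -70 on the opposite strand in CCL20. Of 35116 promoter stretches of the same length, 6.04% held it. CXCL8 alone held the AP-1 motif (4.28% of all stretches), none of the 7 held the C/EBP motif (4.92%), and CCL20 and CXCL8 held the TATA motif (6.59%). CXCL1 and CXCL3 had 136 of 150 bases in common, or 90.7%. Such matches describe letters in a window and are not measured binding. Sequences that differ from a motif at any base were not counted, so a stretch with no match can still hold a binding site.

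CCL20 and IL6 were higher with DOX in both shCNOT3 lines and lower with DOX in shNTC, while CXCL8 and CXCL1 showed the same directions with smaller sizes. CXCL2, CXCL3, LIF and CCL2 had opposite signs in the hairpins, and CXCL5 was lower with DOX in all lines. None of the 9 genes passed the threshold of 0.05 after Benjamini-Hochberg adjustment over all 12630 genes tested in limma, where 28 genes passed (0.103% of genes higher and 0.119% lower). At an unadjusted p under 0.05 there were 3 genes, CCL20, IL6 and CXCL8, all higher, against a background of 7.45% higher. For the change of the shCNOT3 lines beyond that of shNTC, 0 of 12630 genes passed after adjustment (0%), and CCL20 and IL6 had an unadjusted p under 0.05, against 4.48% of genes that were higher by this measure. A difference of at least 2-fold in the same direction in both hairpins, and with shNTC moving less than 0.5 as far that way as the smaller of them (log2), was met upward by the same 2 genes, against 0.649% of all tested genes.

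**Figure D1:**
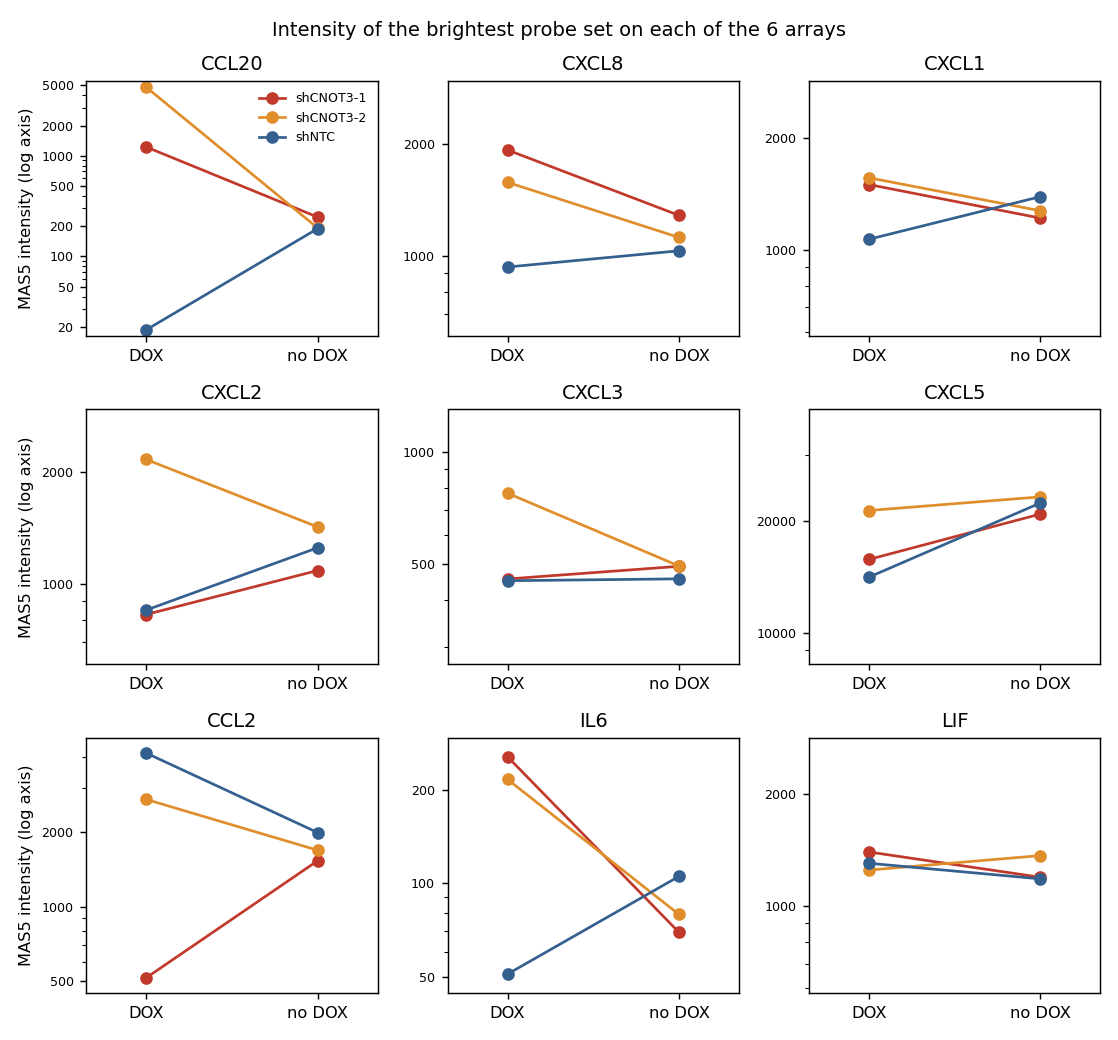
MAS5 intensity (log axis, scaled separately per gene) of the brightest probe set of each gene with DOX (left) and without (right), with a line joining the arrays of one stable line, shCNOT3-1, shCNOT3-2 or shNTC. Without DOX the lines lie close together for CCL20 (189 to 246), and with DOX they spread from 18.7 in shNTC to 4809 in shCNOT3-2.

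CCL20 encodes the ligand of CCR6, which draws dendritic cells and lymphocytes to epithelia. It read 1225 and 4809 with DOX in shCNOT3-1 and shCNOT3-2, against 246 and 192 without DOX. In shNTC it read 18.7 with and 189 without DOX. The shCNOT3 arrays with DOX therefore stood above the other 4 without overlap, and the shNTC array with DOX stood below all others and under the filter intensity of 61.4. Intensity ratios were 4.97 and 25.0 in the shCNOT3 lines. No ratio is given for shNTC, since detection at 18.7 is not known and the size of a fold against so dim a signal depends on the added constant: the difference beyond shNTC was 5.95 on the log2 scale with a constant of 16, in place of 6.74 with 1. Without DOX the 3 lines lay within 1.30-fold of each other.

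On the log2 scale CCL20 differed by 2.31 and 4.64 in the hairpins and by -3.27 in shNTC, a size that carries the same limit. It ranked 1 of 12630 by the mean change of the hairpins and 1 of 12630 in shCNOT3-2, 19 in shCNOT3-1, and 5 among the genes lowest with DOX in shNTC. In limma the knockdown change was 3.47 ± 0.87 (SE, 95% interval 1.53 to 5.42, adjusted p = 0.129), with an SD of 1.65 between the hairpins (n = 2). Beyond shNTC the difference was 6.74 ± 0.79 (SE, 95% interval 4.97 to 8.52), with an unadjusted p = 9.65e-06 and an adjusted p = 0.0907 in limma. The call turned on the setting: limma gave an adjusted p = 0.000268 beyond shNTC with arrays centred on their medians, and for the knockdown change 0.0163 without the shNTC line and 0.0471 with no replicate block. Over all alternatives the adjusted p in limma ran from 0.000268 to 0.514 beyond shNTC and from 0.0163 to 0.457 for knockdown, always with the same direction.

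IL6 encodes interleukin-6, which acts through gp130 on STAT3. With DOX its probe set read 255 and 216 in shCNOT3-1 and shCNOT3-2, against 69.4 and 79.3 without DOX. In shNTC it read 51.0 with and 105 without DOX. As for CCL20, the shCNOT3 arrays with DOX lay above the other 4 without overlap, but IL6 was dim, and its lowest array lay under the filter intensity. IL6 changes of 1.86 and 1.43 in the hairpins, with -1.03 in shNTC, placed it 48 and 168 of 12630 in the hairpins. In limma the knockdown change was 1.65 ± 0.45 (SE, 95% interval 0.65 to 2.65, adjusted p = 0.155), and the difference beyond shNTC was 2.68 ± 0.69 (SE, adjusted p = 0.345). With no replicate block the knockdown change of IL6 passed at adjusted p = 0.0498, where alternatives ran from there to 0.470. With a filter at the 60th percentile IL6 was too dim to be tested, so 1 member was left past the 2-fold rule.

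**Figure D2:**
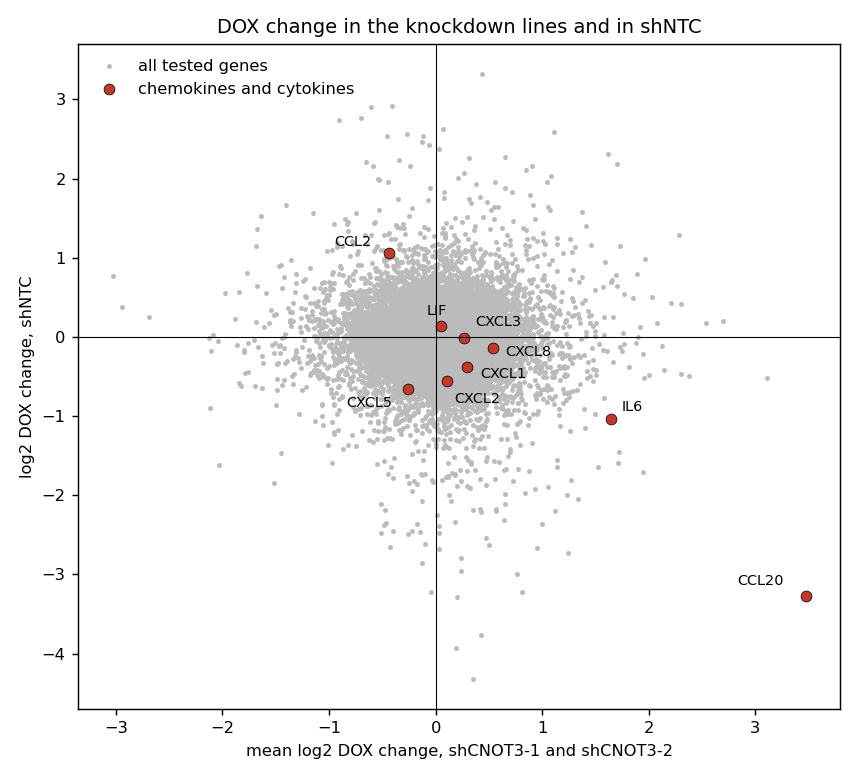
Each point is 1 of the 12630 tested genes, by the mean log2 DOX change of shCNOT3-1 and shCNOT3-2 (horizontal) and the log2 DOX change of shNTC (vertical), with the 9 chemokines and cytokines in red. CCL20 lies at 3.47 and -3.27, apart from the cloud, and IL6 at 1.65 and -1.03.

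CXCL8 (interleukin-8) and CXCL1 are neutrophil chemokines that bind CXCR2. CXCL8 read 1929 and 1579 with DOX in shCNOT3-1 and shCNOT3-2, against 1288 and 1123 without DOX, and 936 with and 1034 without DOX in shNTC. CXCL1 read 1497 and 1561 with DOX in the same lines, against 1216 and 1272 without DOX, and 1067 with and 1389 without DOX in shNTC. In both genes the shCNOT3 arrays with DOX lay above the other 4, as they did for 4 of the 9 genes in all, against 16% of all tested genes.

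For CXCL8 the hairpin changes of 0.58 and 0.49 lay close together (SD 0.065, n = 2), and limma gave 0.54 ± 0.19 (SE, 95% interval 0.11 to 0.97, adjusted p = 0.251). Its second probe set was dimmer, at 408 and 435 with DOX in the shCNOT3 lines, and gave 0.30 and 0.69, with 0.07 in shNTC, where the brighter one gave -0.14. For CXCL1 the hairpins gave 0.30 and 0.29 and shNTC -0.38. The knockdown change of CXCL1 was 0.30 ± 0.21 (SE, 95% interval -0.17 to 0.76, adjusted p = 0.552 in limma), so an increase of up to 0.76 or a small decrease lies within it. Changes of this size were common, since CXCL1 ranked 2872 of 12630 by the mean of the hairpins and CXCL8 1156.

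CXCL2 and CXCL3 are close paralogs of CXCL1 with the same receptor. CXCL2 read 827 and 2159 with DOX in shCNOT3-1 and shCNOT3-2, against 1086 and 1423 without DOX, and 850 with and 1250 without DOX in shNTC. CXCL3 read 456 and 776 with DOX in those lines, against 494 and 494 without DOX, and 451 with and 457 without DOX in shNTC. Both genes were thus highest in shCNOT3-2 with DOX, while shCNOT3-1 with DOX fell within or below the range of the arrays without knockdown.

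The hairpin changes were -0.39 and 0.60 for CXCL2 and -0.11 and 0.65 for CXCL3, with -0.56 and -0.02 in shNTC. Adjusted p in limma was 0.908 for CXCL2 and 0.656 for CXCL3. The bright CXCL2 probe set is of a kind that can bind several transcripts, so signal of CXCL2, CXCL1 and CXCL3 cannot be told apart with certainty. The brightest probe sets of CXCL8 and CXCL5 are of the same kind, so their signal may include other transcripts. The dim CXCL2 probe sets read 2.93 to 44.5 and 7.20 to 83.1 over the arrays. One gave 0.41 and 0.69 in the hairpins and 0.61 in shNTC, and the other -2.18 and -1.97, with -0.52 in shNTC. With the mean of the 3 probe sets the knockdown change of CXCL2 was -0.47, opposite to the 0.10 of the bright one.

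CXCL5, a further CXCR2 ligand, was very bright in A549 cells. Its brightest probe set read 15753 and 21318 with DOX in shCNOT3-1 and shCNOT3-2, against 20861 and 23196 without DOX, and 14121 with and 22339 without DOX in shNTC. Every line was lower with DOX, by -0.41 and -0.12 in the hairpins and by -0.66 in shNTC, where the size was greatest. The other CXCL5 probe sets gave -0.22 and -0.25, and 0.06 and -0.50, in the hairpins, with -0.49 and -0.68 in shNTC. The knockdown change was -0.26 ± 0.19 (SE, adjusted p = 0.576), and the difference beyond shNTC was 0.40 (95% interval -0.06 to 0.86, adjusted p = 0.652), both in limma.

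**Figure D3:**
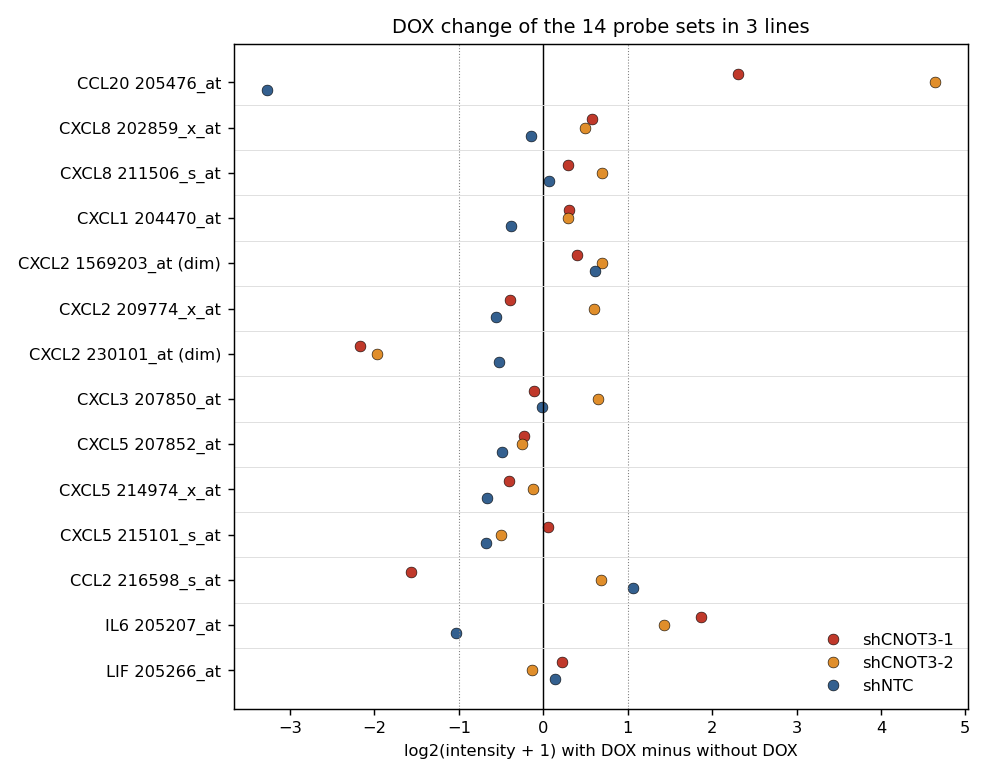
Log2 DOX change of all 14 probe sets in shCNOT3-1, shCNOT3-2 and shNTC (1 point per line), with dotted lines at 2-fold and dim probe sets marked. CCL20 and IL6 have both hairpins to the right of 2-fold and shNTC to the left, and the 3 probe sets of CXCL2 do not share a direction.

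CCL2, the monocyte chemokine that binds CCR2, had the widest gap among the genes with opposite signs in the hairpins. It read 516 and 2701 with DOX in shCNOT3-1 and shCNOT3-2, against 1528 and 1686 without DOX, and 4151 with and 1986 without DOX in shNTC. The lines lay within 1.30-fold of each other without DOX and spread 8.04-fold with it, with shCNOT3-1 at the bottom and shNTC at the top. Changes were -1.56, 0.68 and 1.06 in that order of lines. The knockdown change was -0.44 ± 0.47 (SE, 95% interval -1.50 to 0.62, adjusted p = 0.713 in limma), and its sign rested on 1 line: without shCNOT3-1 it was 0.68.

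LIF, a cytokine of the interleukin-6 family, varied least. It read 1396 and 1248 with DOX in shCNOT3-1 and shCNOT3-2, against 1194 and 1365 without DOX, and 1302 with and 1182 without DOX in shNTC. All 6 arrays overlapped, within 1.12-fold with and 1.16-fold without DOX. The knockdown change was 0.05 (95% interval -0.40 to 0.49, adjusted p = 0.947 in limma), an interval that excludes a 2-fold difference in either direction on these arrays.

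Across the 9 genes the median change was 0.23 in shCNOT3-1, 0.60 in shCNOT3-2 and -0.38 in shNTC, against 0.05, 0.02 and -0.01 for all tested genes. With DOX, 4 of the 9 were higher in both shCNOT3 lines, against 33.2% of all genes, and these 4 were also lower in shNTC, against 17.5% of all genes. The members CXCL8, CXCL1, CXCL5, CXCL3 and CXCL2 lie in 1 cluster on chromosome 4, in the gene order CXCL8, CXCL6, PF4V1, CXCL1, PF4, PPBP, CXCL5, CXCL3, CXCL2. Among the 6 of these that were tested, knockdown changes ran from -0.42 for PF4 and -0.26 for CXCL5 to 0.30 for CXCL1 and 0.54 for CXCL8, so the signs differed within the cluster.

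The 5 genes closest to CCL20, by the Euclidean distance of their log2 changes in the 3 lines, were FHOD3, ANKFN1, FRMD6-AS1, MARCHF4 and ANPEP. Their distances were 3.09 to 3.32 log2 units, similar to the length of the CCL20 change in shNTC alone. MARCHF4, a membrane-bound ubiquitin ligase, gave 3.19 and 3.02 in the hairpins and -0.52 in shNTC, and among the 5 it alone passed for knockdown (adjusted p = 0.0230 in limma). MARCHF4 read 295 and 704 with DOX in shCNOT3-1 and shCNOT3-2, against 31.5 and 85.7 without DOX. In shNTC it read 39.4 with and 57.0 without DOX. ANPEP, the membrane aminopeptidase N, gave 0.59 and 2.08 in the hairpins and -2.05 in shNTC, where it read 20.4 with DOX. Each of the 5 genes had arrays under the filter intensity of 61.4, so these sizes carry the same limit as that of CCL20 in shNTC.

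Receptors of these ligands were mostly dim, and 4 of 11 were bright enough to be tested. Those for the chemokines (CXCR1, CXCR2, CCR2, CCR6, ACKR1 and ACKR2) and CSF2RB were too dim. The 4 tested were LIFR, CSF2RA, IL6ST and IL6R. None passed for knockdown in limma after adjustment, and unadjusted 1 was higher and 1 lower (background 7.45% and 7.08%). Beyond shNTC none passed after adjustment. At an unadjusted p under 0.05 in limma 1 was higher and 3 were lower, against 566 and 495 of 12630 genes. LIFR, which pairs with gp130 to bind LIF, read 74.4 and 111 with DOX in shCNOT3-1 and shCNOT3-2, against 293 and 252 without DOX, and 250 with and 221 without DOX in shNTC. Its knockdown change was -1.57 ± 0.32 (SE, adjusted p = 0.0800 in limma), and LIFR met the 2-fold rule downward, as 0.428% of all genes did. Other LIFR probe sets gave hairpin means from -1.02 to -0.17, and 2 of these 4 were higher in shCNOT3-2.

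CSF2RA, the binding chain of the GM-CSF receptor, read 309 and 276 with DOX in the shCNOT3 lines, against 121 and 129 without DOX, and 61.5 with and 108 without DOX in shNTC. This CSF2RA probe set, too, is of a kind that can bind several transcripts. The knockdown change of CSF2RA was 1.22 ± 0.37 (SE, adjusted p = 0.198 in limma), it met the 2-fold rule upward, and its other probe sets gave hairpin means of 0.68 to 2.38, with 1 of them at -0.31 in shCNOT3-1. IL6ST, which encodes gp130, read 5240 and 5622 with DOX in the shCNOT3 lines, against 7127 and 7740 without DOX, and 14671 with and 8357 without DOX in shNTC. Its knockdown change was -0.45 ± 0.23 (SE, adjusted p = 0.416), and beyond shNTC the difference was -1.26 ± 0.25 (SE, unadjusted p = 0.000640, adjusted p = 0.242), both in limma. For LIFR and IL6ST the shCNOT3 arrays with DOX lay below the other 4, as they did for 12.8% of all genes.

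**Figure D4:**
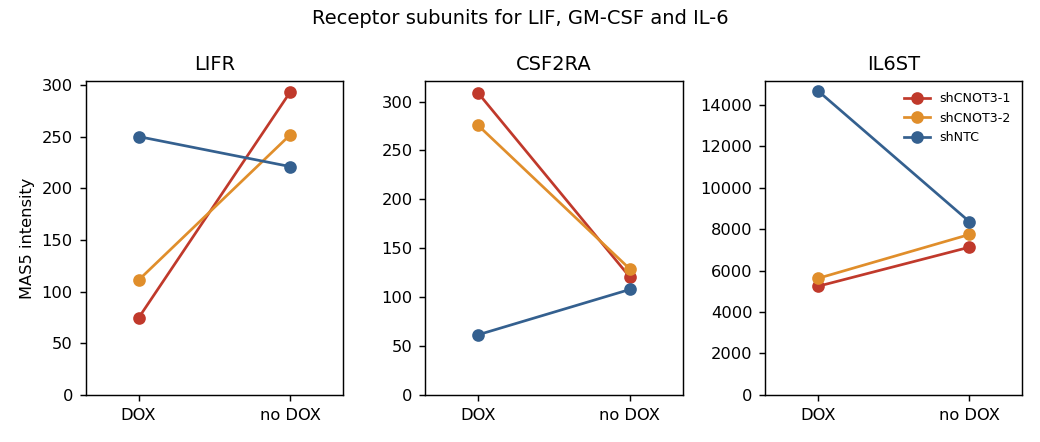
MAS5 intensity (linear axis from 0) of LIFR, CSF2RA and IL6ST with DOX (left) and without (right), with a line joining the arrays of one stable line. With DOX, the shCNOT3 lines read 74.4 and 111 for LIFR, against 250 in shNTC, while CSF2RA read 309 and 276, against 61.5 in shNTC.

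Other chemokines were mostly dim: of 27 listed, 25 had a probe set, 20 were too dim, and none of the 5 tested passed or had an unadjusted p under 0.05 in limma. CXCL16, a membrane-bound chemokine, gave 1.57 and -0.28 in the hairpins and 0.15 in shNTC, and CCL26, an eosinophil chemokine, gave 1.21 and -0.35, with -0.61 in shNTC. PF4, from a probe set that can bind several transcripts, gave -0.32 and -0.51, with 0.03 in shNTC. Of 37 other cytokines 11 were tested and none passed, with 2 higher unadjusted (background 7.45%). These were EBI3, a subunit of interleukins 27 and 35 (1.80 and 1.02 in the hairpins, 1.40 in shNTC), and IL11, which also acts through gp130 (0.71 and 0.75, with 0.79 in shNTC). TNFSF15 gave 0.28 and 1.08, with 0.17 in shNTC. EBI3 and IL11 were thus higher with DOX in all 3 lines, and beyond shNTC their differences were 0.01 and -0.06. EBI3 was dim: without DOX it read 25.0 in shNTC and 55.7 in shCNOT3-2, both under the filter intensity of 61.4. The size of its change in shNTC, and of its difference beyond shNTC, is limited by this.

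Upstream of the members, 15 of 21 receptors, adaptors and kinases of interleukin-1, toll-like receptor and TNF signalling, with C/EBP factors, were tested, and none passed in limma. Unadjusted, 2 were higher (background 7.45%). IRAK2, a kinase adaptor of interleukin-1 and toll-like receptors, read 1738 and 940 with DOX in shCNOT3-1 and shCNOT3-2, against 970 and 664 without DOX. In shNTC it read 733 with and 622 without DOX. CEBPB, a factor that binds the IL6 and CXCL8 promoters, read 20504 and 16609 with DOX in the shCNOT3 lines, against 14205 and 13540 without DOX, and 12330 with and 14250 without DOX in shNTC. The knockdown changes were 0.67 ± 0.21 for IRAK2 and 0.41 ± 0.14 for CEBPB (SE, adjusted p = 0.202 and 0.222 in limma). MYD88, an adaptor of interleukin-1 and toll-like receptors, gave 0.40 and 0.36 in the hairpins, with 0.50 in shNTC.

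Of 13 RNA-binding proteins that act on AU-rich or related elements, 11 were tested and none passed in limma, with 0 higher and 4 lower unadjusted (background 7.45% and 7.08%). ELAVL1 (HuR), which stabilizes AU-rich mRNAs, gave -1.30 and -0.08 in the hairpins and -0.06 in shNTC, so its difference came from shCNOT3-1, and its next brightest probe set gave -0.76 and 0.37. PUM2, a repressor that recruits CCR4-NOT, gave -1.24 and -0.25, with -0.23 in shNTC. TIA1, which represses translation of AU-rich mRNAs, gave -0.36 and -0.85, with -0.20 in shNTC. Its next brightest probe set gave -0.70 and 0.52 in the hairpins, while the remaining TIA1 probe sets were lower in both. ZFP36L2, which binds AU-rich elements and promotes decay, was the fourth, named after its value was seen, at -0.26 and -0.77, with 0.14 in shNTC. The list median was -0.36 in shCNOT3-1, -0.11 in shCNOT3-2 and -0.06 in shNTC.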

How the data were processed

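Affymetrix arrays of 6 RNA samples were used. Per the submitters' processing notes the deposited intensity values were made with MAS5, with settings and detection calls not given in the sources used here. The deposited intensity was linear, with a trimmed mean of 500.1 on every array. Precision is limited by the number of arrays.

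Log2 of intensity plus 1 was taken. A gene was read from its brightest probe set with 1 gene, and genes under the median of all probe sets (5.96 on the log2 scale) were left out, which kept 12630 of 19775. Symbols were updated through Entrez identifiers. limma 3.58.1 in R 4.3.3 (prior variance with an intensity trend, 2-sided, Benjamini-Hochberg) fitted the stable line as a block and a term for knockdown, with 2 residual degrees of freedom, and a second model added a DOX term, with 1. Pairing by line comes from the labels, which give both DOX states of every line. The procedure was tested on simulated data.

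The members and gene lists were chosen with earlier results of these data known. Named beside the members were, per list, genes called in either model or past the 2-fold rule and up to 3 with the lowest knockdown p, and the 5 genes nearest to CCL20. Promoter stretches came from RefSeq (GRCh38.p14), which matched 8 of 10 members, not CCL2 and LIF, and CSF2 is not shown. Alternatives changed the scaling, added constant, filter, probe set, variance prior, block and lines used. Plots used matplotlib 3.10.9 (Python 3.11.15).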

Additional observations from a re-analysis of the deposited data

Results flagged for a closer look

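For 4 genes the DOX change had opposite signs in shCNOT3-1 and shCNOT3-2, each with 1 pair of arrays, so the difference was not tested. The log2 change of shCNOT3-1 minus that of shCNOT3-2 was -2.24 for CCL2, -0.99 for CXCL2, -0.76 for CXCL3 and 0.35 for LIF.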

How the results depend on the processing

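With 1 array per line and condition, a gene's own spread behind the knockdown test rests on the shNTC pair and on the difference between hairpins. Beyond shNTC a gene's own spread rests on the difference between hairpins alone. In both tests limma gave more weight to a prior variance from all tested genes. That prior had 7.59 degrees of freedom for knockdown, against 2 residual ones, and 8.42 against 1 beyond shNTC. Dim probe sets limit IL6 and CXCL2. No member was called for knockdown as reported, against 2 with no replicate block (CCL20 and IL6), where calls over all genes were 191 in place of 28, and 1 (CCL20) without the shNTC line. The range with any 1 line left out was 0 to 1 for this count and 2 to 3 for the 2-fold rule, which is easier to meet with 1 hairpin: over all 12630 genes, in either direction, it was met by 723 without shCNOT3-1 and 789 without shCNOT3-2, in place of 136, and by 679 of 19775 with no filter. Beyond shNTC, 1 member (CCL20) in place of 0 was called with arrays centred on their medians, where 10 genes were called in all, and the 2-fold rule kept 1 member with a filter at the 60th percentile. Calls for knockdown over all genes were 59 with centred arrays, 54 with that filter, 3 with no filter, 6 with probe set means, 0 with no intensity trend, 62 without shCNOT3-2, 57 without shNTC and 67 with a robust prior, a setting added after seeing the data. Signs of the knockdown change turned for CCL2 (0.68) and LIF (-0.13) without shCNOT3-1, for CXCL2 (-0.39) and CXCL3 (-0.11) without shCNOT3-2, and for CXCL2 with probe set means (-0.47, and -0.32 beyond shNTC). Causes were not tested. CCL20, IL6, CXCL8, CXCL1 and CXCL5 kept their direction under every alternative run. With a shCNOT3 line left out, the change beyond shNTC has no residual degrees of freedom and is a value with no test.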
